A study of Saccharomyces cerevisiae with 16 samples.

Results

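HAC1 and 9 other genes of the yeast unfolded protein response, 10 of the 5647 genes counted, were followed in cells with a disrupted translation factor eIF3. The 10 genes were taken by name: HAC1 (YFL031W), IRE1 (YHR079C), KAR2 (YJL034W), PDI1 (YCL043C), LHS1 (YKL073W), SCJ1 (YMR214W), JEM1 (YJL073W), ERO1 (YML130C), EUG1 (YDR518W) and SIL1 (YOL031C). HAC1 was chosen by its measured footprint and translational efficiency (TE, footprints relative to mRNA) changes, which were far down in both mutants, so its values are described without a test. The other 9 were chosen for their place in the pathway, with earlier results of these data known. The question asked of them was whether their mRNAs were also lower where HAC1 footprints were lost.

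In budding yeast the unfolded protein response adjusts the folding capacity of the endoplasmic reticulum (ER). Ire1 is a kinase and endonuclease of the ER membrane that cuts an intron out of HAC1 mRNA in the cytoplasm when unfolded proteins accumulate, and the tRNA ligase Trl1 joins the exons. The unspliced HAC1 mRNA is held in a poorly translated state by pairing between its intron and its 5′-leader, whereas the spliced mRNA is translated into Hac1, a transcription factor that binds unfolded protein response elements in the promoters of ER chaperone and oxidoreductase genes.

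Saccharomyces cerevisiae cells of 4 strains were profiled, with 2 cultures each and a footprint and an mRNA library from every culture, 16 libraries in all. *eIF3a/b Degron* cells carry temperature-sensitive degron forms of TIF32 (eIF3a) and PRT1 (eIF3b) under the copper-dependent CUP1 promoter, and both they and their isogenic WT are MATa trp1∆ leu2 ura3 gcn2::hisG strains with UBR1, the ubiquitin ligase that recognizes the degron, under the GAL1 promoter. They were grown at 25 °C in raffinose medium with copper and shifted to raffinose and galactose medium with the copper chelator BCS at 36 °C for 90 min. *eIF3i DDKK* cells and their isogenic WT are MATa leu2 ura3 trp1∆ tif34∆ strains that carry GCN2 and a plasmid copy of HA-tagged TIF34 (eIF3i), with aspartates changed to lysines in the mutant and unchanged in the WT. They were grown at 30 °C in SC medium and shifted to SC medium at 37 °C for 30 min, and cycloheximide was added to all cultures before harvest. Mutant and WT of a background therefore shared medium and temperature, whereas the backgrounds differed in medium, temperature, time and GCN2.

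The mRNA libraries held 4389212 to 12164617 counted reads and the footprint libraries 5136423 to 29982592. One gene, YDR445C, took 8.79% to 29.9% of the reads of an mRNA library and at most 0.0625% of those of a footprint library. GCN2 mRNA had 21 to 34 reads in the *eIF3a/b Degron* background and 869 to 1961 in the *eIF3i DDKK* background, in the direction of the genotypes. Replicates were closer in the first background, where the biological coefficient of variation was 0.0483, than in the second, where it was 0.121. Genes above a minimum of summed mRNA reads in a background were tested, which left 5306 and 5244 genes and included all 10 described here. Over all genes tested, scaling by library size alone in place of TMM changed the balance of lower and higher calls in *eIF3i DDKK* cells from 630 and 867 to 303 and 1235 for mRNA, and from 1373 and 1375 to 646 and 1975 for footprints. For TE it changed the balance from 151 and 60 to 49 and 65 in *eIF3i DDKK* cells and from 1755 and 1420 to 975 and 2479 in *eIF3a/b Degron* cells. All libraries came from whole cultures, so fewer cells with a transcript and less of it per cell cannot be told apart. Levels and changes were scaled to the libraries without an internal standard, so they are relative to other genes. The paper reports strong falls in bulk translation in both mutants after the shift, which this scaling removes from the footprint and TE changes.

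The HAC1 intron is shown first because the deposited counts do not separate the spliced from the unspliced mRNA. HAC1 lies on the plus strand of chromosome VI, 75179 to 76147 in the sacCer3 (R64) assembly, with coding exons of 661 and 56 nt around an intron of 252 nt. The spliced coding sequence of 717 nt encodes 238 residues. Exon bases at the 5′ and the 3′ ends of the intron are in capitals, and intron bases are in lower case.
HAC1 exon 1 to intron, chrVI:75825-75854: ATTGGCGTAATCCAGccgtgattacgatga
HAC1 intron to exon 2, chrVI:76077-76106: tgcttgtactgtccgAAGCGCAGTCAGGTT
Counting left out the first 15 and last 5 codons and used a region of 909 nt for HAC1, which is the annotated span with the intron less 60 nt. Of that region 41 nt lie in exon 2. Reads of the unspliced and the spliced mRNA over exon 1, and any read over the intron, thus entered the same count.

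Relative to other genes, HAC1 mRNA was as abundant in mutant as in WT cells or more so, while its footprints were nearly gone. In the *eIF3a/b Degron* background its mRNA level was 499 and 502 RPKM (reads per kilobase of counted region and 1000000 TMM-scaled reads, the level used for all genes here) in the WT cultures and 564 and 594 in the mutant cultures. Its footprint level was 400.0 and 332 in the WT cultures and 22.1 and 17.9 in the mutant cultures, from 115 and 89 reads. Both mutant cultures lay just above both WT cultures for mRNA and far below them for footprints. The log2 change, mutant over WT, was 0.21 ± 0.08 (SE) for mRNA and −4.19 ± 0.11 for footprints, an 18.3-fold lower footprint level. The TE change was −4.40 ± 0.14, the 8th lowest of 5306 genes.

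In the *eIF3i DDKK* background the HAC1 mRNA level was 329 and 331 in the WT cultures and 552 and 643 in the mutant cultures. The footprint level was 418 and 392 in the WT cultures and 12.7 and 11.7 in the mutant cultures, from 69 and 56 reads. The mutant cultures were again above the WT cultures for mRNA and below them for footprints, without overlap. The log2 change was 0.86 ± 0.13 for mRNA and −5.05 ± 0.17 for footprints, a 33.1-fold lower footprint level. The TE change of −5.90 ± 0.21 was the lowest of 5244 genes. The median mRNA change of all genes was 0.12 in *eIF3a/b Degron* and 0.11 in *eIF3i DDKK* cells, so that HAC1 mRNA stood 0.09 and 0.75 above it. With the spliced length of 657 counted nt in place of the span, HAC1 mRNA levels averaged 693 in the WT and 801 in the mutant of the first background and 456 and 827 in the second, with the same ratios of mutant to WT.

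**Figure D1:**
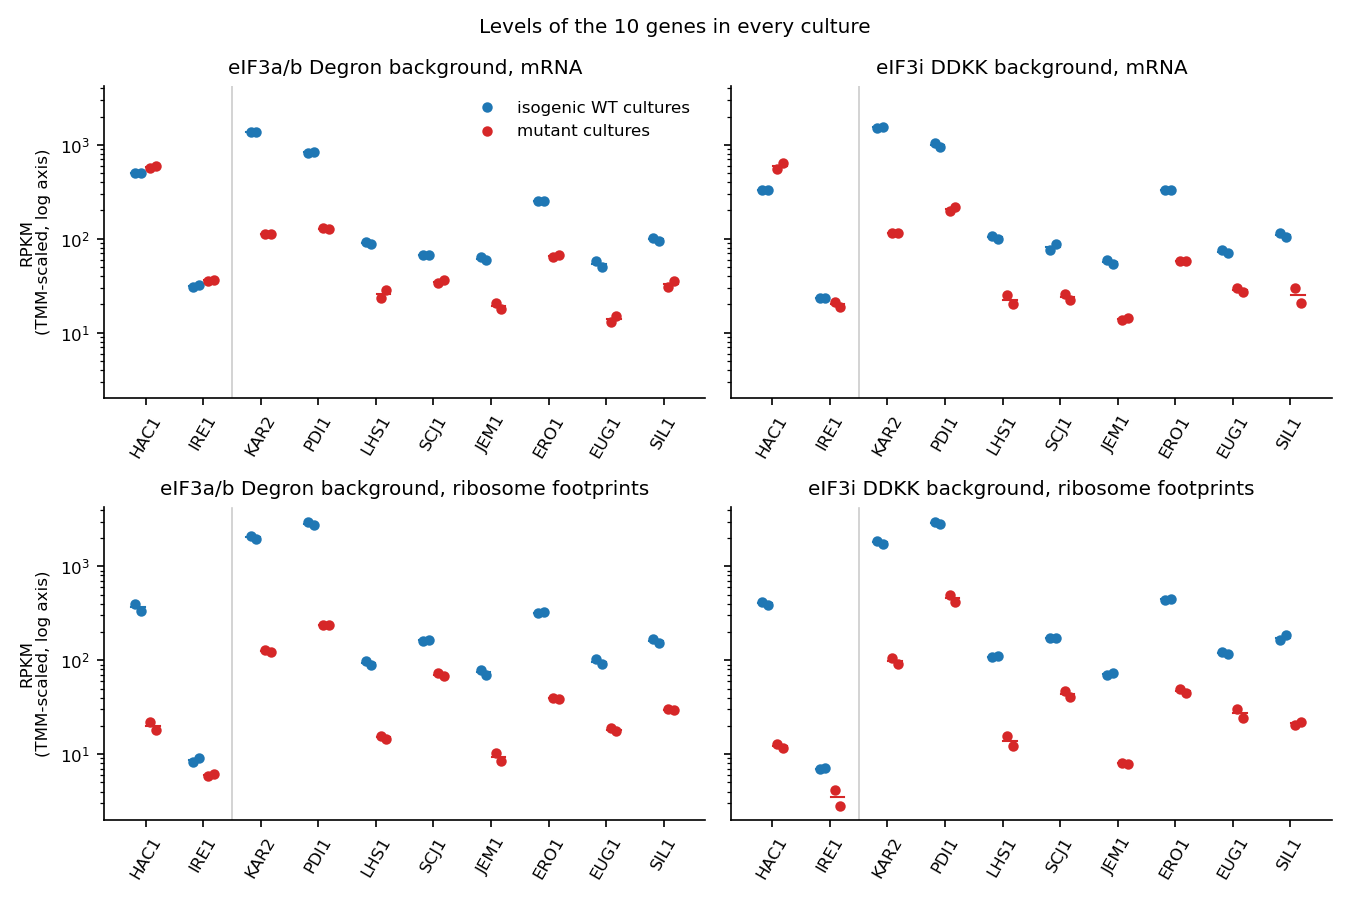
Level of each gene in RPKM (reads per kilobase of counted region and 1000000 TMM-scaled reads, log axis) in each of the 2 WT cultures (blue) and 2 mutant cultures (red) of each background, with the mean as a line, for mRNA (top) and footprints (bottom). HAC1 kept its mRNA and lost its footprints, and the 8 genes right of the grey line were lower in the mutants for both.

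IRE1, the sensor and nuclease, had mRNA levels close to those of WT. In the *eIF3a/b Degron* background its mRNA level was 30.9 and 32.6 in the WT cultures and 35.2 and 36.7 in the mutant cultures. The log2 change was 0.18 ± 0.07 (adjusted p = 0.027, edgeR's quasi-likelihood test), 0.06 above the median of all genes, and 44.3% of all genes tested were called higher in this comparison. The call was lost under 8 of 12 alternatives, leaving out either WT culture or mutant culture 2 among them. In the *eIF3i DDKK* background the mRNA level was 23.5 and 23.4 in the WT and 21.4 and 18.6 in the mutant, a log2 change of −0.23 ± 0.15 that did not pass the threshold (adjusted p = 0.27, edgeR). IRE1 footprints were lower in both mutants, by a log2 change of −0.52 ± 0.11 in *eIF3a/b Degron* (adjusted p = 0.00018, edgeR) and −0.99 ± 0.18 in *eIF3i DDKK* cells (adjusted p = 0.0014, edgeR). IRE1 was thereby the only gene of the 9 whose mRNA was not lower in both mutants.

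The 8 genes for ER folding factors, which are KAR2, LHS1, SIL1, SCJ1, JEM1, PDI1, ERO1 and EUG1, all had lower mRNA in both mutants. All 8 of 8 passed the threshold in *eIF3a/b Degron* cells, where 30.8% of all genes tested were called lower (largest adjusted p = 4.5e-10, for SCJ1, edgeR). All 8 of 8 also passed it in *eIF3i DDKK* cells, where 12% of all genes were called lower (largest adjusted p = 0.00019, for EUG1, edgeR). The median log2 mRNA change of the 8 with IRE1 was −1.81 and −2.11 in these strains, against 0.12 and 0.11 over all genes. Each of the 12 alternatives in each background, leave-outs of single cultures included, kept the direction and the call of all 8 genes (192 of 192 values). Each change is a ratio of mutant to WT after the same temperature shift, and levels before the shift were not analysed here, so a gene that rose in the WT cannot be told apart from one that fell in the mutant.

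KAR2 encodes the ER Hsp70 chaperone, also called BiP, and is a well known target of Hac1. Its mRNA level was 1369 and 1373 in the WT cultures of the *eIF3a/b Degron* background and 113 and 112 in the mutant cultures. In the *eIF3i DDKK* background it was 1518 and 1550.5 in the WT cultures and 116 and 115 in the mutant cultures. KAR2 thus had the highest mRNA level of the 10 genes in both WT strains, and the cultures of a strain lay close together. The mRNA change was −3.61 ± 0.07 on the log2 scale (12.2-fold, 10th lowest of 5306 genes) in *eIF3a/b Degron* cells and −3.73 ± 0.16 (13.3-fold, 2nd lowest of 5244) in *eIF3i DDKK* cells. Its footprint level went with it, from 2100.5 and 1963 to a mean of 126 ± 2.85 (SD, n = 2) in the first background and from 1865 and 1738 to 105 and 91.5 in the second.

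LHS1 and SIL1 encode nucleotide exchange factors of Kar2, and SCJ1 and JEM1 encode J proteins that stimulate its ATPase. LHS1 mRNA was at 92.3 and 88.2 in the WT and 23.3 and 28.2 in the mutant of the *eIF3a/b Degron* background, and at 107 and 101 against 25.1 and 20.0 in the *eIF3i DDKK* background. SIL1 mRNA was at 103 and 94.9 against 30.5 and 35.7 in the first and at 114 and 106 against 29.8 and 20.9 in the second. The log2 mRNA changes were thus near each other, at −1.81 ± 0.08 and −2.20 ± 0.16 for LHS1 and −1.58 ± 0.09 and −2.11 ± 0.17 for SIL1.

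SCJ1 mRNA was at 66.9 and 66.7 in the WT and 34.0 and 36.1 in the mutant of the *eIF3a/b Degron* background, the smallest change of the 8 genes there at −0.93 ± 0.08 (log2). In the *eIF3i DDKK* background SCJ1 was at 76.0 and 87.4 in the WT and 25.6 and 22.1 in the mutant, a change of −1.77 ± 0.14. The other J protein gene, JEM1, was at 63.9 and 59.1 against 20.8 and 17.7 in the first background and at 59.2 and 54.5 against 13.8 and 14.2 in the second. Its log2 mRNA changes were −1.67 ± 0.10 and −2.02 ± 0.12. For each of these 4 cofactor genes the WT and mutant cultures did not overlap in either background.

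PDI1 and its relative EUG1 encode protein disulfide isomerases, and ERO1 encodes the oxidase that reoxidizes Pdi1. PDI1 mRNA was at 819.6 and 841 in the WT and 130.1 and 126 in the mutant of the *eIF3a/b Degron* background, and at 1056 and 957 against 199.8 and 218 in the *eIF3i DDKK* background. The log2 change was −2.70 ± 0.07 (6.48-fold) in the first and −2.27 ± 0.17 (4.82-fold) in the second. PDI1 had the next highest mRNA level after KAR2 in both WT strains. ERO1 mRNA was at 253 and 252 against 63.4 and 67.2 in the first background and at 329 and 334 against 58.6 and 58.6 in the second, with log2 changes of −1.95 ± 0.07 and −2.50 ± 0.13. EUG1 mRNA was at 57.6 and 49.7 against 13.05 and 14.9 in the first background and at 75.3 and 70.4 against 29.8 and 27.2 in the second, with log2 changes of −1.94 ± 0.11 and −1.35 ± 0.14. EUG1 had the smallest mRNA change of the 8 genes in *eIF3i DDKK* cells.

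The summed mRNA of the 8 folding genes was 5014 and 5011 CPM (reads per 1000000 TMM-scaled reads) in the WT cultures of the *eIF3a/b Degron* background and 716 and 732 in the mutant cultures, a 6.92-fold lower mean. In the *eIF3i DDKK* background it was 5871 and 5761 in the WT cultures and 827 and 822 in the mutant cultures, a 7.06-fold lower mean. Levels were scaled within each background, so those of different backgrounds are given side by side and not compared.

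Footprints of all 9 genes other than HAC1 were lower in both mutants. All 9 of 9 passed the threshold in *eIF3a/b Degron* cells, where 41.3% of all genes tested were called lower, and all 9 of 9 in *eIF3i DDKK* cells, where 26.2% were. The median log2 footprint change of the 9 was −2.63 and −2.98, against 0.01 over all genes in both strains. KAR2 had the largest change of the 9, at −4.01 ± 0.07 in *eIF3a/b Degron* and −4.20 ± 0.17 in *eIF3i DDKK* cells. PDI1 footprints changed by −3.57 ± 0.07 and −2.66 ± 0.17 and ERO1 footprints by −3.02 ± 0.07 and −3.24 ± 0.14. Without IRE1, the smallest footprint change was that of SCJ1 in both strains, at −1.21 ± 0.07 and −1.96 ± 0.14.

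**Figure D2:**
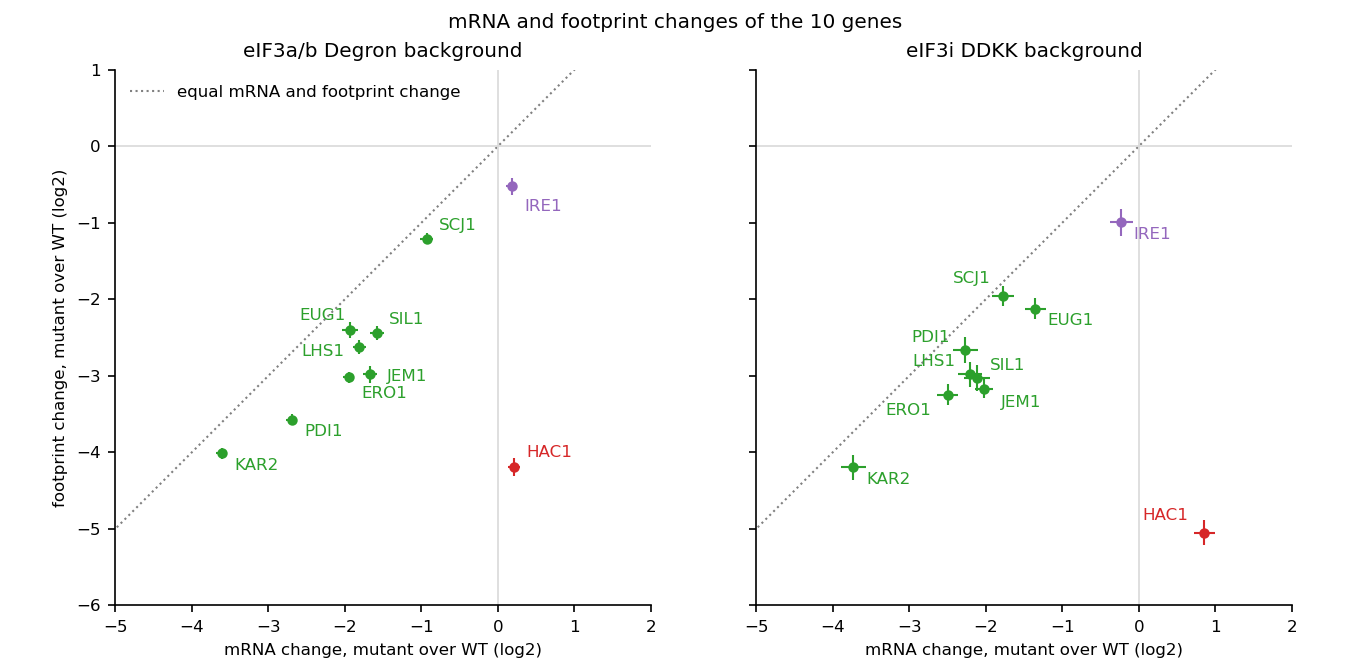
log2 change of mRNA (x axis) and of footprints (y axis), mutant over WT, for the 10 genes in each background, with standard errors as bars. The 8 folding genes (green) lie at mRNA changes below 0 and under the dotted line of equal change, JEM1 furthest from it by 1.31 and 1.14, whereas HAC1 (red) lies at a footprint change of −4.19 and −5.05 with an mRNA change above 0.

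The log2 TE change of each of the 8 folding genes was smaller in size than its mRNA change in both strains, both taken relative to other genes. A fall in translation shared by all genes is not part of these TE changes. JEM1 in *eIF3a/b Degron* cells was the nearest to equal at −1.31 beside −1.67. IRE1 was the exception, with TE changes of −0.70 and −0.77 beside mRNA changes of 0.18 and −0.23. These are comparisons of fitted values and were not tested. In *eIF3a/b Degron* cells all 9 of 9 had a lower TE past the threshold, where 33.1% of all genes tested were called lower and 26.8% higher, and their median log2 TE change was −0.82 against −0.04 over all genes. JEM1 had the largest, at −1.31 ± 0.16, followed by ERO1 at −1.06 ± 0.10, and SCJ1 the smallest, at −0.28 ± 0.11 (adjusted p = 0.036, edgeR). The call was lost under some of the 13 alternatives for SCJ1 (7, and 1 in which the sign turned to 0.036), EUG1 (6) and KAR2 (3).

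In *eIF3i DDKK* cells 2 of 9 genes had a lower TE past the threshold, where 2.88% of all genes tested were called lower and 1.14% higher. These were JEM1, at −1.14 ± 0.18 (adjusted p = 0.011, edgeR), and ERO1, at −0.75 ± 0.18 (adjusted p = 0.049, edgeR). The other 7 had TE changes of −0.19 (SCJ1) to −0.92 (SIL1) with adjusted p-values of 0.055 to 0.65, and 6 of the 9 had an unadjusted p under 0.05. The median of the 9 was −0.77, against −0.08 over all genes. With single cultures left out the count changed, as did the calls over all genes, while the median TE change of the 9 was −0.78 to −0.67. The count also depended on the pairing of footprint and mRNA libraries, which were made from the lysate of a culture. With each culture as a block 7 of 9 genes had a lower TE past the threshold, all but PDI1 and SCJ1, and so did 668 of all 5244 genes.

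The footprint level per mRNA level shows how far HAC1 stood from the other genes. In WT cells HAC1 had 0.802 and 0.661 footprints per mRNA in the *eIF3a/b Degron* background, and 1.27 and 1.19 in the *eIF3i DDKK* background, ranked 1974th of 5306 and 3076th of 5244 genes from the lowest. In the mutants the ratio was 0.0391 and 0.0301 in the first, ranked 102nd, and 0.0230 and 0.0182 in the second, ranked 42nd. HAC1, which was chosen for its low footprint and TE changes, thus moved from the middle of the genes to near their lower end. KAR2 had 1.53 and 1.43 in the WT and 1.13 and 1.11 in the mutant of the first background, and 1.23 and 1.12 against 0.902 and 0.794 in the second. PDI1 had the highest ratio of the 10 genes in both WT strains, at 3.58 and 3.27 in the first and 2.83 and 2.93 in the second. IRE1 had the lowest in the WT, at 0.270 and 0.277 in the first and 0.299 and 0.302 in the second.

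**Figure D3:**
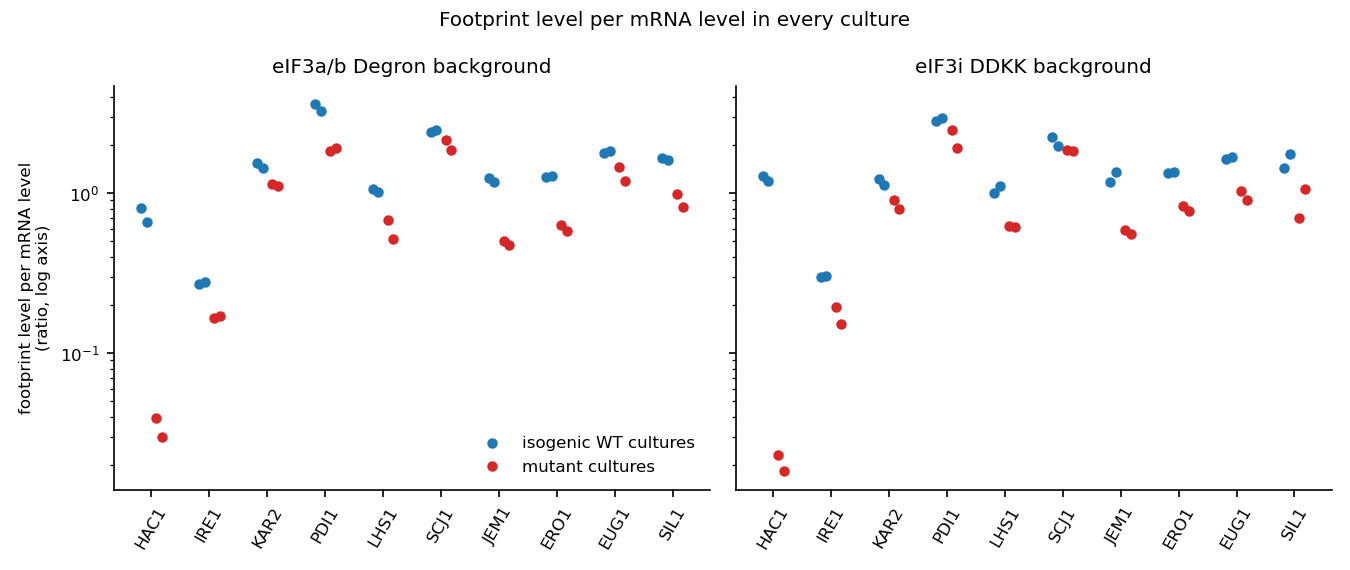
Footprint level divided by mRNA level (log axis) of each gene in each WT culture (blue) and mutant culture (red), by background. HAC1 fell from 0.661 to 1.27 in the WT cultures to 0.0182 to 0.0391 in the mutant cultures, and every other gene lay between 0.153 and 3.58.

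The order of the mRNA levels also changed between WT and mutant. In WT cells of the *eIF3a/b Degron* background the order was KAR2, PDI1, HAC1, ERO1, SIL1, LHS1, SCJ1, JEM1, EUG1 and IRE1, with each gene above the next in both cultures. In the WT cells of the *eIF3i DDKK* background ERO1 came before HAC1 with overlapping cultures, EUG1 came before JEM1 in both cultures, and the cultures of SIL1 and LHS1 overlapped. In both mutants HAC1 was first, at a mean of 579 and 598, and PDI1 was next. For footprints PDI1 was first and KAR2 next in all 4 strains, while HAC1 was 3rd or 4th in the WT strains and 6th or 8th in the mutants, where it overlapped with EUG1 in *eIF3a/b Degron* and lay just under LHS1, with overlap, in *eIF3i DDKK* cells. The place of HAC1 depends on its length. With the spliced length its *eIF3i DDKK* WT means were above those of ERO1, at 456 beside 331 for mRNA and 560.4 beside 445 for footprints. Its mean footprint level in *eIF3i DDKK* mutant cells was then 16.9, above LHS1 at 13.9.

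The mRNA changes of the 2 strains were compared in a fit over all 16 libraries, as the *eIF3a/b Degron* change minus the *eIF3i DDKK* change. Of the 9 genes, 2 changed less far down in *eIF3a/b Degron* cells, where 17.2% of 5228 genes had a positive difference past the threshold. They were SCJ1, with a log2 difference of 0.79 ± 0.16 (adjusted p = 0.0014, edgeR), and ERO1, with 0.49 ± 0.13 (adjusted p = 0.0070, edgeR). Another 2 changed further down, where 21.4% of genes had a negative difference past the threshold. They were EUG1, with a difference of −0.64 ± 0.17 (adjusted p = 0.0095, edgeR), and PDI1, with −0.48 ± 0.16 (adjusted p = 0.024, edgeR). The counts of 2 of 9 each way lie near these shares of all genes. KAR2 had a difference of 0.07 ± 0.14 (adjusted p = 0.74, edgeR). SCJ1 kept its call under all 13 alternatives, whereas that of PDI1 was lost under 5, of ERO1 under 2 and of EUG1 under 2. Without *eIF3a/b Degron* WT culture 1 or mutant culture 1 the count further down was 0, and it was 1 without WT culture 2 or mutant culture 2 of that background or without WT culture 2 of the other. The count less far down was 1 without *eIF3a/b Degron* mutant culture 2 and 5 without *eIF3i DDKK* mutant culture 1. The difference in TE change passed for 0 of 9 genes, where 1.78% of genes were called lower and 1.89% higher (edgeR), and 0 of 9 had an unadjusted p under 0.05. This fit, like that of DESeq2, did not pair the footprint and mRNA libraries of a culture. DESeq2 also called 0 of 9, and without *eIF3i DDKK* mutant culture 2 the count was 1. Strain, medium, temperature, time and GCN2 cannot be told apart in these differences.

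The lists of other pathway genes had median mRNA changes nearer to 0 than the 8 folding genes, whose median was −1.87 in *eIF3a/b Degron* and −2.16 in *eIF3i DDKK* cells, although single genes such as MPD1, FPR2 and SEC61 changed further than some of the 8, and the difference between lists was not tested. The counts that follow stand beside 30.8% of all genes called lower and 44.3% higher in *eIF3a/b Degron* mRNA, and 12% lower and 16.5% higher in *eIF3i DDKK* mRNA. Among 4 genes for UPR signalling, 1 was lower and 3 higher in *eIF3a/b Degron* mRNA (median 0.28), and 1 was lower and 0 higher in *eIF3i DDKK* mRNA (median −0.22), counts too small to read against these shares. TRL1, the ligase that joins the HAC1 exons, rose by 0.37 ± 0.08 in *eIF3a/b Degron* cells (adjusted p = 0.00017, edgeR), and TPT1, the phosphotransferase of tRNA splicing, fell by 0.59 on the log2 scale (adjusted p = 7.4e-05, edgeR). PTC2, a phosphatase that acts on Ire1, was the one called in *eIF3i DDKK* cells, at −0.44 ± 0.13 (adjusted p = 0.032, edgeR), and its call was lost under 5 of 12 alternatives, each of which either changed the scaling or left out WT culture 1, WT culture 2 or mutant culture 1.

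Of 8 other ER folding factors, 5 were lower and 2 higher in *eIF3a/b Degron* mRNA (median −0.37), where 30.8% and 44.3% of all genes were, and 4 lower and 0 higher in *eIF3i DDKK* mRNA (median −0.29), where 12% and 16.5% were. MPD1, a member of the disulfide isomerase family, had the largest change in *eIF3a/b Degron* cells, at −1.99 ± 0.09, and CNE1, the yeast calnexin, stood at the other end with 0.31 ± 0.10, a call lost under 5 of 12 alternatives that included leaving out WT culture 2 and mutant culture 1. FPR2, a peptidyl-prolyl isomerase, had the largest change in *eIF3i DDKK* cells, at −1.53 ± 0.17, and MPD2 the smallest called, at −0.56 ± 0.12, which was lost without WT culture 1, without WT culture 2 and with library size alone.

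Of 13 genes for ER-associated degradation (ERAD), which returns misfolded proteins to the cytosol, 8 were lower and 3 higher in *eIF3a/b Degron* mRNA (median −0.30; all genes 30.8% and 44.3%) and 3 lower and 0 higher in *eIF3i DDKK* mRNA (median −0.30; all genes 12% and 16.5%). DER1, a subunit of the HRD ligase complex, was lowest in *eIF3a/b Degron* cells at −0.98 ± 0.13, and MNL1, a mannosidase that marks glycoproteins for degradation, was highest at 1.05 ± 0.07. In *eIF3i DDKK* cells the ubiquitin ligase gene SSM4, also known as DOA10, was at −0.83 ± 0.16 and HRD3 at −0.42 ± 0.13, and both calls were lost without WT culture 1 or without WT culture 2, that of HRD3 also without mutant culture 1.

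Of 9 genes for translocation into the ER, 5 were lower and 1 higher in *eIF3a/b Degron* mRNA (median −0.34) and 5 lower and 0 higher in *eIF3i DDKK* mRNA (median −0.46), beside the same shares of all genes (30.8% and 44.3%, 12% and 16.5%). SEC61, the channel subunit, was lowest in both, at −0.99 ± 0.07 and −1.48 ± 0.22, and its relative SSH1 was highest in *eIF3a/b Degron* cells at 0.31 ± 0.07. SEC62 was the smallest called in *eIF3i DDKK* cells, at −0.46 ± 0.15, and was lost without WT culture 1, without WT culture 2 and without mutant culture 2. Of 10 genes for the oligosaccharyltransferase and glucose trimming of glycans, 6 were lower and 1 higher in *eIF3a/b Degron* mRNA (median −0.25) and 4 lower and 0 higher in *eIF3i DDKK* mRNA (median −0.50), beside these shares again. OST5 was at −0.89 ± 0.14 and OST6 at 0.46 ± 0.10 in the first, and the glucosidase gene CWH41 at −0.84 ± 0.16 and OST1 at −0.58 ± 0.17 in the second, where both calls were lost without WT culture 1 or WT culture 2. The calls of TRL1, SSH1 and OST6 as higher in *eIF3a/b Degron* cells were lost with all 16 libraries in one fit.

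Heat shock genes of the cytosol were lower together with the ER folding genes. Of 12 genes for cytosolic chaperones, 11 were lower and 0 higher in mRNA in each strain, where 30.8% of all genes in *eIF3a/b Degron* and 12% in *eIF3i DDKK* cells were called lower, with medians of −2.64 in *eIF3a/b Degron* and −2.11 in *eIF3i DDKK* cells, beside −1.81 and −2.11 for the 9 pathway genes. HSP26, a small heat shock protein, was lowest in *eIF3a/b Degron* cells at −4.13 ± 0.09, and YDJ1, an Hsp40, was the smallest called at −1.25 ± 0.07. SSA4, a heat-inducible Hsp70, was lowest in *eIF3i DDKK* cells at −3.88 ± 0.30, and SIS1, another Hsp40, the smallest called at −1.41 ± 0.22. SSA3 in *eIF3a/b Degron* cells, at 0.09 ± 0.10, and HSP42 in *eIF3i DDKK* cells, at 0.03 ± 0.41, were the genes of this list that did not pass. The list holds near-identical pairs, SSA1 with SSA2 and HSP82 with HSC82, whose shared reads the counting may have split. The summed mRNA of the 12 genes was 27641 and 30309 CPM in the WT and 3295 and 3647 in the mutant of the *eIF3a/b Degron* background, an 8.35-fold lower mean. It was 37520.4 and 39409 against 4177 and 6136 in the *eIF3i DDKK* background, a 7.46-fold lower mean. The part of the heat shock genes' change in that of the ER folding genes was not tested.

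**Figure D4:**
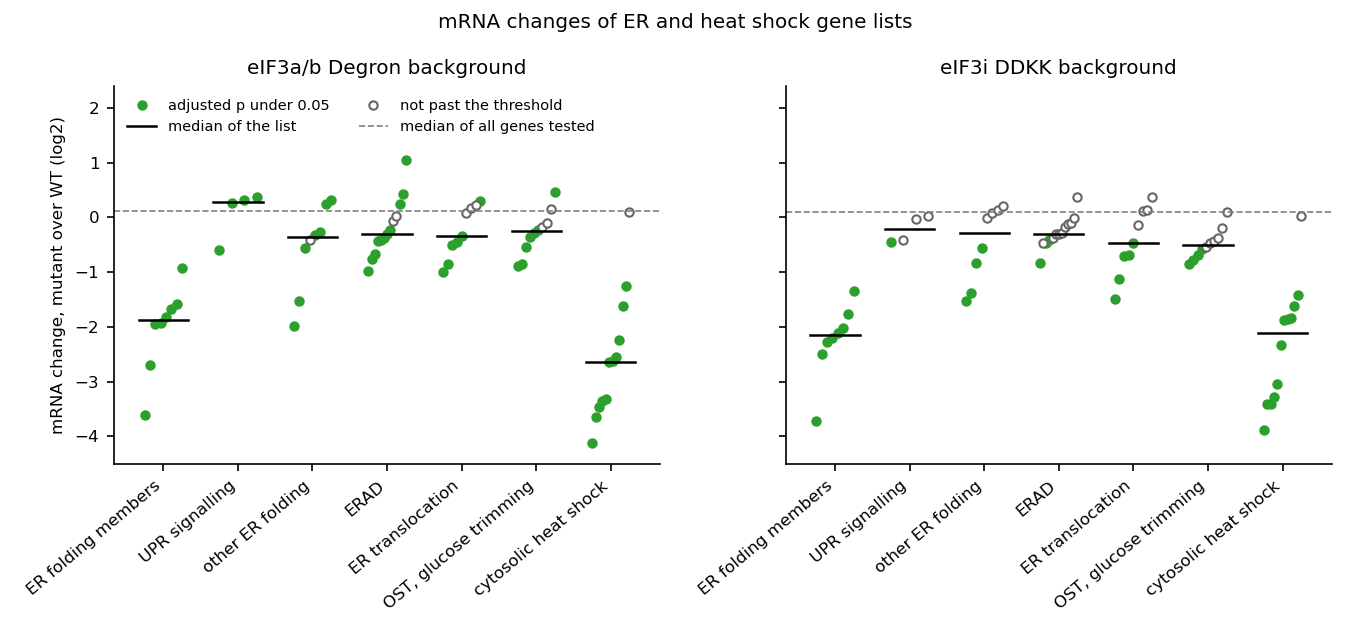
log2 mRNA change, mutant over WT, of the 8 ER folding genes and of 6 lists of related genes in each background, with 1 point per gene, filled where the adjusted p was under 0.05, the median of each list as a bar and the median of all genes tested as a dashed line. The 8 folding genes and the cytosolic heat shock list have the lowest medians, and the other lists have medians of −0.50 to 0.28, with single genes that reach −1.99.

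The promoters of the folding genes were searched because their mRNAs were lower together. The window of 250 bases before to 50 bases after the start of the coding sequence was read from the R64 genome, on both strands, for the core of the unfolded protein response element, CAGCGTG, and for the looser CANCNTG, which includes it. CAGCGTG was found in 2 of the 10 genes, KAR2 and LHS1, and in 64 of 5450 windows over all genes (1.17%). The matches are shown with their flanks and with the motif in capitals, the KAR2 match on the strand of its gene, with its first base 160 bases before the start codon, and the LHS1 match on the opposite strand, 99 bases before it.
KAR2, chrX:381159-381181, plus strand: gaactggaCAGCGTGtcgaaaaa
LHS1, chrXI:296323-296345, minus strand: ttttataaCAGCGTGttcgatat
PDI1, looser motif, chrIII:50396-50418, minus strand: caatttgcCACCGTGtagcattt
CANCNTG was found in 5 of the 10 genes (HAC1, KAR2, PDI1, LHS1 and SCJ1) and in 30.5% of all windows, and no match to either form was found in the windows of IRE1, JEM1, ERO1, EUG1 or SIL1. PDI1 had a second looser match, 69 bases before its start codon. That match and the looser matches of HAC1 and SCJ1 are not shown. Over all tested genes with CAGCGTG the median mRNA change was 0.27 in *eIF3a/b Degron* cells (61 genes, 17 or 27.9% called lower) and 0.14 in *eIF3i DDKK* cells (61 genes, 11 or 18.0% called lower). Without it the medians were 0.12 and 0.11 and the shares called lower 31.0% and 12.0%, so the medians with the core were not below those without it, while the share called lower was above that without it in *eIF3i DDKK* cells (15.3% with KAR2 and LHS1 left out). These differences were not tested. KAR2 and LHS1 were among the 17 and the 11.

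The heat shock element was searched in the same windows after the changes of the cytosolic heat shock list had been seen. Its form of 3 alternating GAA and TTC units, with a pair of any bases between neighbouring units, was found on either strand in 1 of the 10 genes, KAR2, in 3 of the 12 heat shock genes and in 44 of 5450 windows (0.807%). The KAR2 match lay 205 bases before the start codon, upstream of the element shown for KAR2, with a second match that overlaps it on the other strand.
KAR2 heat shock element, chrX:381117-381139, plus strand: taataGAACCTTCTGGAAatttc
Tested genes with the form of 3 units had a median mRNA change of −0.19 in *eIF3a/b Degron* cells (43 genes, 23 or 53.5% called lower) and −0.15 in *eIF3i DDKK* cells (41 genes, 17 or 41.5% called lower). With KAR2 left out the shares were 52.4% and 40%. The 3 heat shock genes with a match, from the list that prompted the search, stayed in. Genes without it had medians of 0.12 and 0.11, and 30.8% and 11.8% of them were called lower; the difference was not tested. KAR2 therefore carried both kinds of match, and the other 7 folding genes carried no 3-unit match. The shorter form of 2 units was searched as well. It was found in HAC1 and KAR2, in 6 of the 12 heat shock genes and in 1255 of 5450 windows. Of tested genes with it, 31.7% were called lower in *eIF3a/b Degron* and 13.2% in *eIF3i DDKK* cells. Without it the shares were 30.8% and 11.7%. These shares lay closer together than those for the form of 3 units, and the difference was not tested.

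The genes whose pattern over the 16 libraries was most like that of HAC1 were found by Pearson correlation of log2 CPM, centred within each background and assay, among 5073 genes. They were PSP2 (0.985), an RNA-binding protein, SET2 (0.980), a histone methyltransferase, RSP5 (0.971), a ubiquitin ligase, ADH4 (0.968), an alcohol dehydrogenase, and FRT1 (0.964), a protein of the ER membrane. The 16 points share library depth and fall into 8 groups, so the coefficients describe the shape and not its size. ADH4 had footprint changes of −2.80 in *eIF3a/b Degron* cells and −4.56 in *eIF3i DDKK* cells, from 126 and 131 to 7 and 7 reads and from 875 and 862 to 11 and 7 reads. PSP2 had footprint changes of −0.38 and −0.44. The other 9 pathway genes ranked from 233rd (IRE1) to 1095th (SCJ1) in this order.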

How the data were processed

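Read counts per gene were deposited by the authors for 16 libraries in 2 tables, without normalization, over coding regions trimmed by 15 codons at the start and 5 at the end. The submitters' processing notes name CASAVA 1.8, Bowtie2 2.2.6.0, TopHat2 2.1.0, DESeq2 and the sacCer3 build. A deposited table of the authors' TE changes and p-values was not used. Sample columns carry no strain background, which came from the table. Counts were fitted with edgeR 4.0.16 in R 4.3.3 (glmQLFit, glmQLFTest; 1 mean per group, TMM over the 8 libraries of a background, at least 128 reads over its 4 mRNA libraries, Benjamini-Hochberg over all genes tested, threshold 0.05). The change of TE was the assay by genotype interaction, and each SE was the absolute log2 change over the root of its F statistic. Fold is mutant over WT, or its inverse where lower. Correlations used log2 CPM after adding 0.5. Replicates are biological per the labels, and none were identical (mean chi-square per gene 3.87 to 78.5).

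Named genes are the 10 members, the called genes with the lowest and highest mRNA change of each list and background, and the 5 genes most like HAC1; SSA3, HSP42 and YDR445C are also named, after their values were seen, and SSA1, SSA2, HSP82 and HSC82 only as near-identical pairs. The members and lists were chosen with earlier results of these data known. SWP1 is not analysed here. Counted lengths equalled the annotated span with introns less 60 nt for 248 of 249 genes with introns. No member shares a 28-nt window with another gene or overlaps one. Alternatives were DESeq2 1.42.0, other scalings, filters, samples, blocks and leave-outs. The fit was tested on simulated data with 200 changed genes: edgeR recovered 100 of 100 mRNA changes of 2-fold in *eIF3a/b Degron* and 94 of 100 in *eIF3i DDKK* data, and for TE 90 of 100 and 80 of 100. False calls over changes of 2-fold and 4-fold were 8 of 208 calls and 20 of 214 for mRNA and 9 of 198 and 12 of 192 for TE, so that in the *eIF3i DDKK* simulations their share was above the threshold. Tables and plots used Python 3.11.15, numpy 2.4.6, pandas 2.3.3 and matplotlib 3.10.9.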

Additional observations from a re-analysis of the deposited data

Results flagged for a closer look

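The mRNA changes of 4 of the 9 genes differed between the strains. This was by the test of the difference itself, taken as the *eIF3a/b Degron* change minus the *eIF3i DDKK* change. Over all genes 17.2% had a positive and 21.4% a negative difference past the threshold. SCJ1 (0.79) and ERO1 (0.49) were less far down in *eIF3a/b Degron* cells, and EUG1 (−0.64) and PDI1 (−0.48) were further down. With 2 of 9 genes each way, these counts lie near the shares of all genes. The call of PDI1 was lost under 5 of 13 alternatives, that of ERO1 under 2 and that of EUG1 under 2. The strains also differ in medium, temperature, time and GCN2, which cannot be told apart from the eIF3 mutations.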

How the results depend on the processing

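The mRNA calls of the 8 folding genes and the footprint calls of all 9 genes held under every alternative run for them. The 1 gene called higher in *eIF3a/b Degron* mRNA, IRE1, became 0 with all 16 libraries in one fit, with DESeq2, with library size alone, with library size without YDR445C and with TMM within each assay, and 0 to 1 when single cultures were left out. The 2 genes with lower TE in *eIF3i DDKK* cells became 6 with all 16 libraries in one fit, 0 with library size alone, 1 with library size without YDR445C, 1 with TMM within each assay, 1 with a minimum of 10 counts per library, and 0 to 5 with single cultures left out; with the replicate block they were 6 and with each culture as a block 7. Same-numbered WT and mutant cultures share a number in the labels, and whether they were handled together is not given. Correlations of their deviations, mRNA and footprints, were 0.01 and −0.02 in the *eIF3a/b Degron* background. They were higher, at 0.22 and 0.43, in the *eIF3i DDKK* background. The replicate block changed no other call among these genes except the strain difference in mRNA, where the 2 genes less far down became 4. That count was 1 with library size alone and 1 to 5 with single cultures left out, while the 2 genes further down became 0 to 2 and the TE difference, 0, became 0 to 1. Library size alone turned the *eIF3a/b Degron* TE change of SCJ1 to 0.036 and the strain difference in KAR2 mRNA to −0.13, moved the all-gene median of the mRNA change in *eIF3i DDKK* cells from 0.11 to 0.28 and that of the footprint change in *eIF3a/b Degron* cells from 0.01 to 0.24, and moved the median mRNA level of the 10 genes in *eIF3a/b Degron* WT cells from 94.6 to 118.9 RPKM. Of the 5 genes most like HAC1, 2 were also among the first 5 by Spearman correlation, and the 2 promoters with CAGCGTG compare with 5 for the looser motif and 1 for the 3-unit heat shock element. Over all genes, in *eIF3i DDKK* cells the lower and higher calls ranged over the alternatives from 103 to 1115 and 63 to 1552 for mRNA (630 and 867 as reported, least without WT culture 1), from 646 to 1622 and 557 to 2194 for footprints (1373 and 1375) and from 2 to 668 and 1 to 386 for TE (151 and 60, with 434 lower under the replicate block). In *eIF3a/b Degron* cells the higher mRNA calls ranged from 1517 to 2360 (2349) and the TE calls from 930 to 1840 lower (1755) and 1081 to 2479 higher (1420). The strain difference ranged from 293 to 1236 higher mRNA calls (900) and from 2 to 346 lower and 1 to 348 higher TE calls (93 and 99). HAC1 had 56 to 115 footprint reads per mutant library, which limits the precision of its ratio. The cause of these shifts was not tested.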

Other observations

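The TE changes of the related gene lists follow. In *eIF3a/b Degron* cells a lower TE passed the threshold for 6 of 10 genes of the oligosaccharyltransferase and glucose trimming list (2 higher, median log2 TE change −0.49), 6 of 13 ERAD genes (1 higher, median −0.28), 4 of 9 translocation genes (0 higher, median −0.0008), 2 of 8 other ER folding factors (0 higher, median −0.13), 2 of 4 UPR signalling genes (1 higher, median −0.24) and 9 of 12 cytosolic heat shock genes (0 higher, median −0.37), where 33.1% of all genes tested were called lower and 26.8% higher. In *eIF3i DDKK* cells a lower TE passed for 2 of 12 cytosolic heat shock genes and for 0 of the 44 genes of the other lists (edgeR), of which 6 had an unadjusted p under 0.05; over all genes 2.88% were called lower and 1.14% higher. DESeq2 also called 0 of the 44. Neither fit paired the footprint and mRNA libraries of a culture, and counts for these lists with each culture as a block are not given here. HAC1 footprint levels with the spliced length averaged 506 in the WT and 27.6 in the mutant of the *eIF3a/b Degron* background and 560.4 and 16.9 in the *eIF3i DDKK* background.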
